A study of Homo sapiens with 24 samples.

Results

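The genes AXIN2, RNF43, ZNRF3, NKD1, NKD2, NOTUM, APCDD1 and SP5 act as negative feedback regulators of Wnt signalling, and their RNA was followed in HepaRG cells, a human liver progenitor line derived from a hepatocellular carcinoma. These 8 genes were chosen by name, and every array probe whose RefSeq transcript belongs to them was used, which gave 11 of the 50683 probes. A filter on dim probes kept 7 of the 8 genes among the 24643 genes tested, and NOTUM was the gene left out. RNA was hybridised to 24 Agilent arrays with a single dye, and each of 8 conditions had 3 arrays, from culture experiments that the labels call independent. Untransfected cells received nothing, mouse recombinant Wnt3a at 200 ng/ml, mouse FZD8_CRD at 300 ng/ml, or Wnt3a and FZD8_CRD together. Other cells were detached and transfected in suspension with 80 pmol of a control siRNA or of an siRNA against β-catenin (gene CTNNB1), and each of these arms was cultured without or with Wnt3a at 200 ng/ml. All cultures were collected after 72 h in serum-free HepaRG medium with bovine serum albumin. The comparisons ask how the feedback genes answer to a Wnt ligand, and how that answer changes when β-catenin is silenced or when Wnt ligands are captured outside the cell.

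Wnt ligands bind Frizzled receptors with the co-receptors LRP5 and LRP6, which stops a cytoplasmic destruction complex from degrading β-catenin, so that β-catenin enters the nucleus and activates genes with TCF and LEF factors. Several of the activated genes encode proteins that dampen the same pathway at the ligand, the receptor, Dishevelled, the destruction complex or the promoter. FZD8_CRD is the soluble Wnt-binding domain of Frizzled 8 and acts as a decoy for Wnt ligands, and in the liver β-catenin signalling shapes hepatocyte zonation and is often mutated in hepatocellular carcinoma.

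Levels are given as log2 signal, the log2 of a probe's processed intensity over the 75th percentile of its array, so that 0 is that percentile and levels are compared only within a probe. Between 58.3% and 66.5% of the spots of an array were well above background (median 61.4%), and the 75th percentile was 635 to 933 intensity units (median 767). Arrays of the same condition correlated at 0.984 to 0.996 over all genes tested. The 3 slides each held 1 replicate of all 8 conditions, so slide and replicate number are the same batch, and the position of an array on its slide cannot be told apart from its condition. Arrays that shared a replicate number deviated from their condition means in a like way, with a mean correlation of 0.38 and 82 of 84 pairs over 0.1. The mean of -0.19 for arrays with different numbers follows from this, since deviations sum to 0 within a condition. The main fit has no term for slide, and slide as a block was run as an alternative. A gene is called at a Benjamini-Hochberg adjusted p under 0.05 over all genes tested in limma, and with 3 arrays a condition the number of arrays limits the precision.

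The silenced gene was checked before its targets. CTNNB1 read 3.35, 3.39 and 3.52 after control siRNA and 0.26, 0.36 and 0.52 after β-catenin siRNA, and with Wnt3a it read 3.39, 3.62 and 3.70 against 0.34, 0.53 and 0.79. Every array with β-catenin siRNA lay far below every array with control siRNA. The log2 fold change was -3.04 without Wnt3a (limma adjusted p 1.43e-09) and -3.02 with it (adjusted p 9.49e-10), lower on 3 of 3 slides each time. The hepatic identity of the cells was checked against marker lists. All 8 hepatocyte markers were well above background on all 24 arrays, with ALB at a mean of 9.41 in untreated cells. So were 5 of 6 biliary and progenitor markers and 3 of 3 epithelial markers. The same held for 4 of 4 endothelial, 5 of 6 stellate and fibroblast and 2 of 4 blood cell markers. HBB was below that mark on every array and EPCAM reached it on 1. Passing this mark therefore does not set the hepatocyte markers apart from the other lists. The mean log2 signal of the 8 hepatocyte markers was 5.45, 4.60 and 3.86 in untreated cells and 4.15, 2.98 and 4.26 with Wnt3a. It was 2.87, 2.80 and 2.91 after control siRNA and 2.41, 1.86 and 2.31 after control siRNA with Wnt3a. These markers thus lay lower in transfected cells than in untreated ones. The list averaged 3.70, 3.11 and 3.54 after β-catenin siRNA, and 2.32, 2.84 and 3.29 with Wnt3a added. With FZD8_CRD it averaged 2.29, 1.73 and 2.92, and 2.70, 2.69 and 2.87 with FZD8_CRD and Wnt3a. The median log2 fold change of these markers with Wnt3a was -0.89 in untransfected cells and -0.62 after control siRNA. Of 6 biliary and progenitor markers 5 passed the filter, and limma called 1 higher and 1 lower with Wnt3a in untransfected cells, where 5.43% of all genes were called. Of 6 hepatic stellate and fibroblast markers it called 3 higher there (COL1A1, DCN and ACTA2, the last of which spike-in scaling turned) and 1 higher after control siRNA (COL1A1), where 2.02% of all genes were called. β-catenin siRNA lowered 3 of these 6 without Wnt3a (DCN, DES and PDGFRB) and 3 with it (DCN, DES and COL1A1), where 10.5% and 10.6% of all genes were called. PDGFRB was well above background on only 7 of 24 arrays. Its mean was highest after control siRNA (-5.18), the reference here, and was -5.97 after β-catenin siRNA, near the floor of -6.13. The size of its change is therefore not measured, and its call carries little weight. Without Wnt3a, SPP1 was also called higher with β-catenin siRNA, and CD14 and PECAM1 lower. With Wnt3a, ALB and SPP1 were called higher, and CD24, SOX9 and CD14 lower. All 8 hepatocyte markers lay higher in both comparisons (medians 0.66 and 0.58), and of these only ALB with Wnt3a was called. Endothelial, epithelial and blood cell markers had medians with Wnt3a in untransfected cells of -0.08, -0.10 and -0.12. The part of any marker list in the results below was not tested. In this bulk RNA, fewer cells of a type and less RNA per cell cannot be told apart.

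AXIN2, RNF43 and NKD2 were called higher with Wnt3a both in untransfected cells and after control siRNA, although spike-in scaling turned AXIN2 in untransfected cells. In untransfected cells, 3 of the 7 tested feedback genes were called higher and 0 lower in limma (4 had an unadjusted p under 0.05), where 5.43% of all genes were called. After control siRNA, again 3 of 7 were called higher and 0 lower (4 at an unadjusted p under 0.05, NKD1 among them), where 2.02% of all genes were called. The 3 Wnt3a values lay wholly above the 3 untreated values for 3 of the 7 genes, where 9.16% of all genes did so. After control siRNA this held for 5 of the 7, where 11.6% of all genes did so, but NKD1 was among them and had passed the filter only through that group. Scaling each array to its spike-in probes in place of the 75th percentile moved the median of all genes by Wnt3a to -0.38 in untransfected cells and to 0.19 after control siRNA, and then 0 and 1 of the feedback genes were called.

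**Figure D1:**
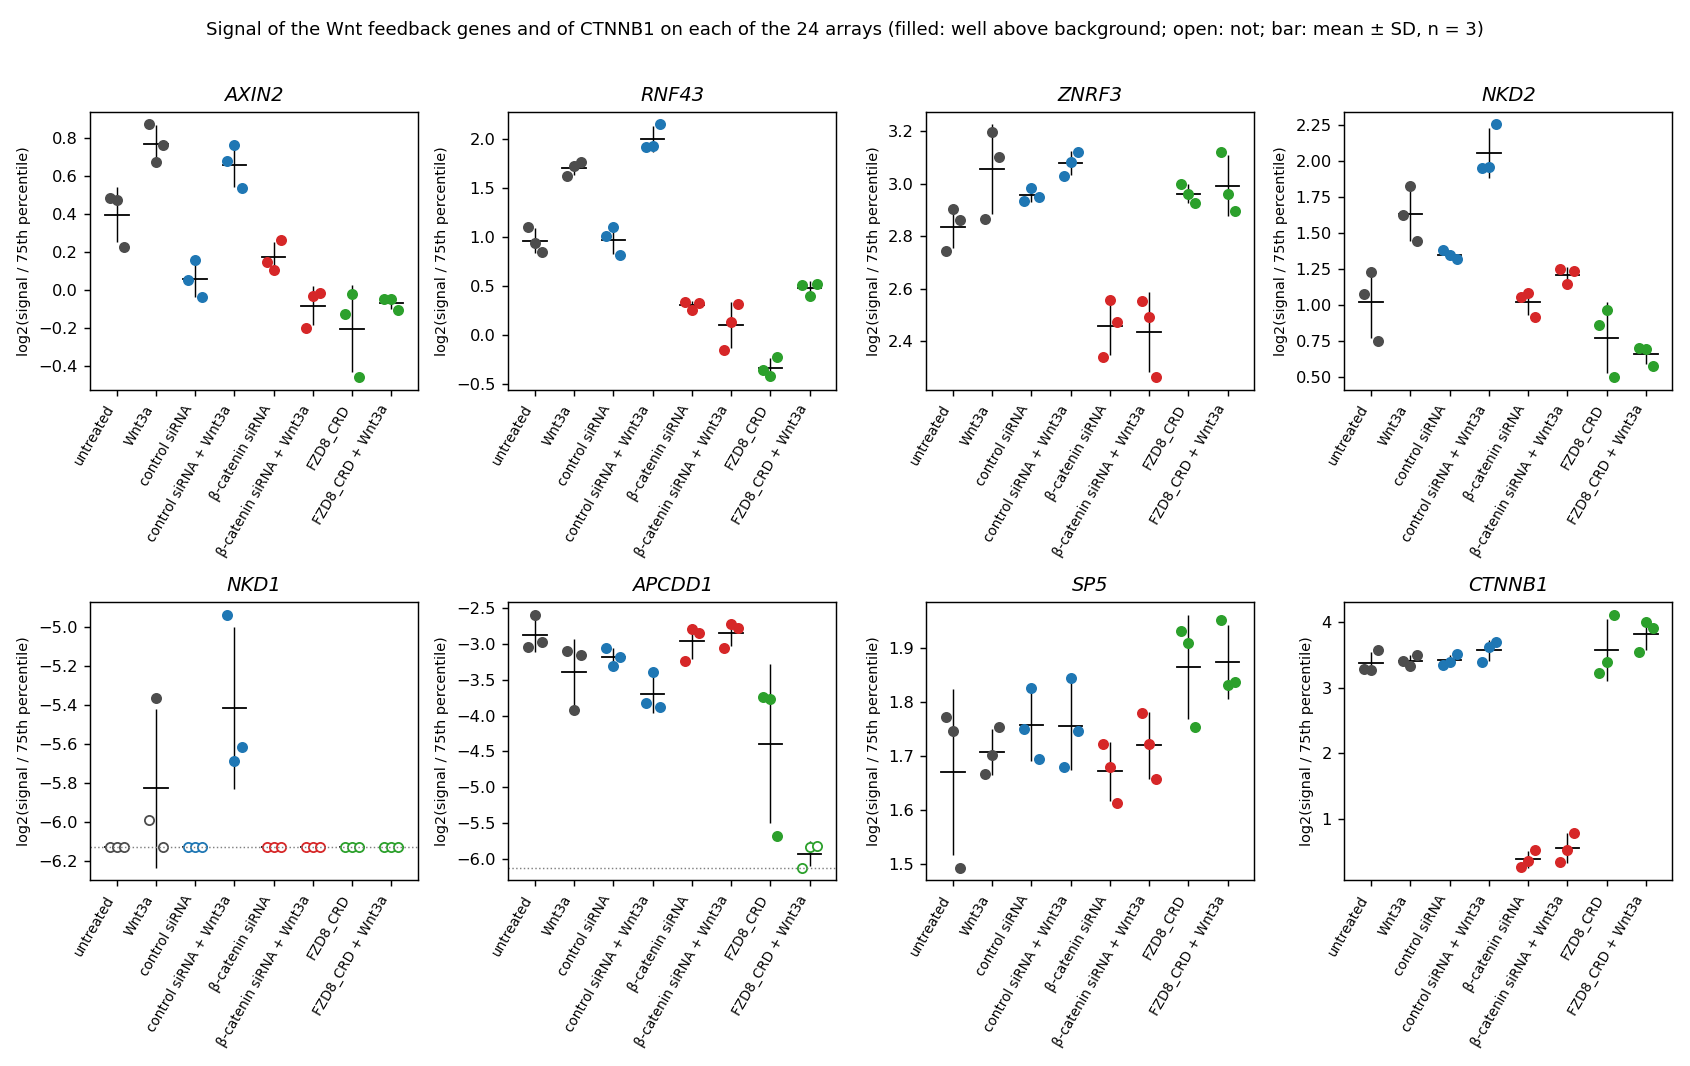
Log2 signal (vertical axis) of the 7 tested feedback genes and CTNNB1 on each of the 24 arrays in the 8 conditions (horizontal axis), with filled points well above background, open points not, and bars for the mean and SD of 3 arrays. AXIN2, RNF43 and NKD2 sit highest in the Wnt3a arrays of untransfected cells and of cells with control siRNA under the 75th percentile scaling used, and CTNNB1 is low only after β-catenin siRNA.

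AXIN2 encodes a scaffold of the β-catenin destruction complex and is a widely used readout of the pathway. Its log2 signal was 0.48, 0.48 and 0.23 in untreated cells and 0.87, 0.67 and 0.76 with Wnt3a. After control siRNA it was 0.06, 0.16 and -0.03, and 0.68, 0.76 and 0.54 with Wnt3a. All 3 Wnt3a arrays lay above all 3 arrays without it in both arms. After β-catenin siRNA it was 0.15, 0.11 and 0.26, and -0.20, -0.03 and -0.01 with Wnt3a. With FZD8_CRD it was -0.12, -0.02 and -0.46, and -0.04, -0.05 and -0.10 with FZD8_CRD and Wnt3a. In the cells with β-catenin siRNA the Wnt3a arrays were the lower ones, without overlap, whereas the values with FZD8_CRD overlapped. Ordered by mean, the Wnt3a and control siRNA with Wnt3a conditions came highest and overlapped each other. Next came untreated, β-catenin siRNA and control siRNA, where neighbours overlapped, and then FZD8_CRD with Wnt3a, β-catenin siRNA with Wnt3a and FZD8_CRD, where neighbours overlapped as well.

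The response of AXIN2 to Wnt3a was a log2 fold change of 0.37 in untransfected cells (SE 0.10, limma adjusted p 0.0410), with slide differences of 0.39, 0.20 and 0.54. That call was fragile. Spike-in scaling turned its direction to -0.03 (adjusted p 0.945, over alternatives from 0.0190 to 0.945). The call was also lost without untreated replicate 1 (0.42), 2 (0.41) or 3 (0.29) and without Wnt3a replicate 1 (0.32) or 2 (0.42), without slide 1 (0.37) or 2 (0.46), with no filter (0.37), under normexp with quantile scaling (0.30), with the submitters' own values (0.36) and in the fit to only the conditions compared (0.37). After control siRNA the response was 0.60 (SE 0.10, adjusted p 0.00632), with 0.62, 0.60 and 0.57 on the 3 slides, and it missed the threshold without control siRNA replicate 3 (0.55, adjusted p 0.0558), without slide 1 (0.59) or 2 (0.60) and under spike-in scaling (0.76). After β-catenin siRNA it was -0.25 (adjusted p 0.391), lower on 3 of 3 slides. The difference between these responses was -0.85 and missed the threshold in limma (adjusted p 0.0528), while the fit with slide as a block gave an adjusted p of 0.0278. With FZD8_CRD the response was 0.14 (adjusted p 0.544), and its difference from that of untransfected cells, -0.24, was not called (adjusted p 0.566) and turned to 0.07 under spike-in scaling.

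Comparing arms at equal Wnt3a, AXIN2 was lower with β-catenin siRNA than with control siRNA when Wnt3a was present, by a log2 fold change of -0.74 (limma adjusted p 7.37e-05, lower on 3 of 3 slides; not called under spike-in scaling, at -0.95), and differed by 0.11 without Wnt3a (adjusted p 0.626). With FZD8_CRD it was lower than in cells without it on 3 of 3 slides, by -0.60 without Wnt3a (adjusted p 0.000118; -0.99 and called under spike-in scaling) and -0.84 with Wnt3a (adjusted p 6.47e-06). A dimmer probe of AXIN2, examined after the data had been seen, gave 0.34 and 0.49 for Wnt3a in untransfected cells and after control siRNA, neither of them called (adjusted p 0.251 and 0.142). The same probe fell more with FZD8_CRD, to -1.02 without and -1.41 with Wnt3a, both called.

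RNF43 and ZNRF3 encode transmembrane ubiquitin ligases that remove Frizzled receptors from the cell surface. RNF43 read 1.10, 0.94 and 0.85 in untreated cells and 1.62, 1.72 and 1.76 with Wnt3a. After control siRNA it read 1.00, 1.10 and 0.81, and 1.92, 1.92 and 2.14 with Wnt3a. In these arms the arrays with and without Wnt3a were far apart and did not overlap. After β-catenin siRNA RNF43 read 0.33, 0.25 and 0.33, and -0.15, 0.13 and 0.32 with Wnt3a. With FZD8_CRD it read -0.36, -0.42 and -0.23, and 0.51, 0.39 and 0.52 with FZD8_CRD and Wnt3a. The values with β-catenin siRNA overlapped, whereas with FZD8_CRD the Wnt3a arrays lay wholly above the others, from a lower starting level. Over the 8 conditions RNF43 was highest in control siRNA with Wnt3a, then in Wnt3a, then in control siRNA and untreated cells, which overlapped. FZD8_CRD with Wnt3a followed, then β-catenin siRNA without and with Wnt3a, which overlapped, and FZD8_CRD alone was lowest, with no overlap between the other neighbours.

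Wnt3a changed RNF43 by a log2 fold change of 0.74 in untransfected cells (SE 0.10, limma adjusted p 0.000611) and 1.03 after control siRNA (SE 0.10, adjusted p 9.32e-05). The slide differences were 0.52, 0.79 and 0.91 in untransfected cells and 0.92, 0.82 and 1.34 after control siRNA. With FZD8_CRD the change was 0.81 (SE 0.10, adjusted p 0.000224), or 0.87, 0.82 and 0.75 on the 3 slides, and after β-catenin siRNA it was -0.21 (adjusted p 0.519). RNF43 was the only feedback gene for which the response to Wnt3a differed by a called amount between β-catenin and control siRNA, by -1.23 (95% confidence interval -1.54 to -0.92, adjusted p 0.00188). That call was lost under spike-in scaling (-1.53) and without slide 1 (-1.15) or 2 (-1.37), with adjusted p of 0.598, 0.417 and 0.796 (over alternatives, 0.000385 to 0.796), and its direction was kept. Its response with FZD8_CRD differed from that of untransfected cells by 0.07 (95% confidence interval -0.24 to 0.38, adjusted p 0.948). Under spike-in scaling the responses without transfection and with FZD8_CRD kept their direction at 0.34 and 0.71, with adjusted p of 0.394 and 0.327 (over alternatives, 0.000198 to 0.394 and 2.36e-05 to 0.327). The call in untransfected cells was also lost without slide 2 (0.72), and that with FZD8_CRD without slide 1 (0.79) or 2 (0.81). Both were lost in the fit to only the conditions compared (0.74 and 0.81).

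RNF43 was also lower in each arm with β-catenin siRNA or FZD8_CRD. With β-catenin siRNA it lay below control siRNA by a log2 fold change of -0.67 without Wnt3a (limma adjusted p 0.000328; not called under spike-in scaling or without slide 2, both -0.58) and -1.90 with Wnt3a (adjusted p 6.38e-10). With FZD8_CRD it lay below cells without it by -1.30 without Wnt3a (adjusted p 1.15e-07) and -1.22 with Wnt3a (adjusted p 2.54e-07). Each of these differences was found on 3 of 3 slides, and the groups did not overlap.

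ZNRF3 was called only with β-catenin siRNA against control siRNA. Its log2 signal was 2.75, 2.90 and 2.86 in untreated cells and 2.86, 3.20 and 3.10 with Wnt3a, and it was 2.94, 2.98 and 2.95 after control siRNA and 3.03, 3.08 and 3.12 with Wnt3a. After β-catenin siRNA it was 2.34, 2.56 and 2.47, and 2.55, 2.49 and 2.26 with Wnt3a. With FZD8_CRD it was 3.00, 2.96 and 2.93, and 3.12, 2.96 and 2.90 with FZD8_CRD and Wnt3a. All 6 arrays with β-catenin siRNA were lower than all other arrays, and from the top of the order down to control siRNA each condition overlapped the next. The log2 fold change against control siRNA was -0.50 without Wnt3a (limma adjusted p 0.000801) and -0.64 with it (adjusted p 4.67e-05), lower on 3 of 3 slides each time. Spike-in scaling kept the direction, at -0.41 and -0.85, but called neither. A dimmer ZNRF3 probe, examined after the data had been seen, gave -0.39 and -0.37, neither of them called (adjusted p 0.127 and 0.157). Wnt3a changed ZNRF3 by 0.22 in untransfected cells, which was not called (adjusted p 0.146) and turned to -0.18 under spike-in scaling, and which passed the threshold only without Wnt3a replicate 1 (0.31, adjusted p 0.0456). FZD8_CRD changed it by 0.13 without Wnt3a (adjusted p 0.267), which turned to -0.27 under spike-in scaling, and by -0.06 with Wnt3a (adjusted p 0.616).

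**Figure D2:**
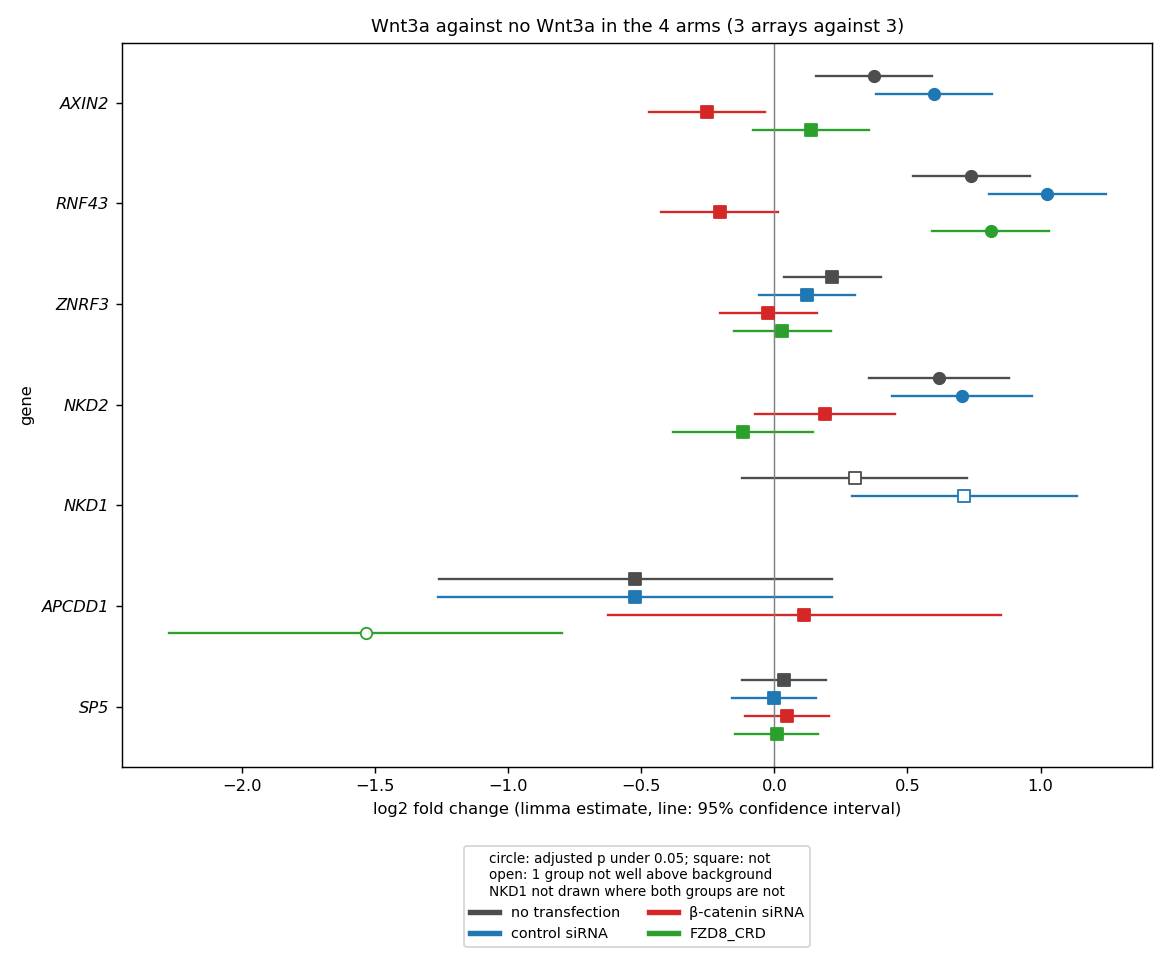
Log2 fold change (horizontal axis, limma estimate with its 95% confidence interval) of 7 feedback genes (vertical axis) with Wnt3a in the 4 arms, 3 arrays against 3. RNF43 is called higher in every arm but that with β-catenin siRNA and AXIN2 and NKD2 in 2 arms, under 75th percentile scaling; spike-in scaling turns AXIN2 in untransfected cells to -0.03. Open symbols have a group with no array well above background, so their size is not measured.

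NKD2 and NKD1 encode Naked cuticle proteins, which bind Dishevelled and restrain its signalling. NKD2 read 1.08, 1.23 and 0.74 in untreated cells and 1.63, 1.83 and 1.45 with Wnt3a. After control siRNA it read 1.38, 1.35 and 1.32, and 1.95, 1.96 and 2.26 with Wnt3a. The Wnt3a arrays lay wholly above the others in both arms. After β-catenin siRNA NKD2 read 1.06, 1.08 and 0.92, and 1.25, 1.15 and 1.24 with Wnt3a. With FZD8_CRD it read 0.86, 0.96 and 0.49, and 0.70, 0.69 and 0.57 with FZD8_CRD and Wnt3a. After β-catenin siRNA the Wnt3a arrays lay slightly above the others without overlap, a difference that was not called, and with FZD8_CRD the values overlapped. The order ran from control siRNA with Wnt3a through Wnt3a, control siRNA and β-catenin siRNA with Wnt3a to β-catenin siRNA, with no overlap between these neighbours. Below them, β-catenin siRNA, untreated, FZD8_CRD and FZD8_CRD with Wnt3a each overlapped the next.

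Wnt3a changed NKD2 by a log2 fold change of 0.62 in untransfected cells (SE 0.13, limma adjusted p 0.00871), with slide differences of 0.55, 0.61 and 0.70. After control siRNA the change was 0.71 (SE 0.13, adjusted p 0.00733), with slide differences of 0.57, 0.61 and 0.94. These calls missed the threshold without Wnt3a replicate 2 (0.52, adjusted p 0.0811) and without control siRNA replicate 3 (0.69, adjusted p 0.0539), respectively, and both were lost without slide 1 (0.65 and 0.77) or 2 (0.63 and 0.75). The call in untransfected cells was also lost in the fit to only the conditions compared (0.62). Spike-in scaling kept the direction of both changes, at 0.22 and 0.86, but neither was called. After β-catenin siRNA the change was 0.19 (adjusted p 0.666), and its difference from control siRNA, -0.52, had an unadjusted p of 0.00906 and was not called (adjusted p 1). With FZD8_CRD the change was -0.12 (adjusted p 0.720). The difference from untransfected cells was -0.74, or -0.71, -0.88 and -0.62 on the 3 slides, and was not called (adjusted p 0.100), while slide as a block gave an adjusted p of 0.0465. It was also called without FZD8_CRD replicate 3 (-0.87, adjusted p 0.00261) or without Wnt3a replicate 3 (-0.83, adjusted p 0.0414). The same held without slide 3 (-0.79, adjusted p 0.00132) and at the study's thresholds.

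At equal Wnt3a, NKD2 fell by 0.85 with β-catenin siRNA against control siRNA when Wnt3a was present (limma adjusted p 0.000135), and the difference of -0.33 without Wnt3a was not called (adjusted p 0.106), although it was without slide 3 (-0.29) and in the fit to only the conditions compared (-0.33). It fell by 0.98 with FZD8_CRD when Wnt3a was present (adjusted p 8.52e-06), and the difference of -0.24 without Wnt3a was not called (adjusted p 0.128), passing without untreated replicate 3 (-0.38, adjusted p 0.0206) and without slide 3 (-0.24). Each of these differences was lower on 3 of 3 slides.

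NKD1 was at the limit of detection, with 4 of 24 arrays well above background. It read -4.94, -5.69 and -5.62 after control siRNA with Wnt3a, where all 3 arrays measured it, and -5.99, -5.36 and -6.13 with Wnt3a alone, where 1 of 3 arrays did. On all arrays of the other 6 conditions it lay at the floor of -6.13, where values have no order. Fold changes are therefore lower bounds, taken against the faintest signal that counted as well above background on each dim array. NKD1 had passed the filter only through control siRNA with Wnt3a, the group where it was high, and those other 6 conditions entered limma with an SD of 0 each, so its p-values are not given. NKD1 was at least 1.64-fold higher with Wnt3a after control siRNA (mean -5.41 against -6.13), which was not called. It was called with slide as a block, unmoderated and at the study's thresholds, under the same limits. That bound holds only for the intensities used here, since normexp with quantile scaling gave a log2 difference of 0.26, and the difference was also smaller without control siRNA with Wnt3a replicate 1. With Wnt3a in untransfected cells only 1 of 3 arrays measured it, so no fold is given, and the difference was not called. With Wnt3a it was at least 1.39-fold lower with β-catenin siRNA than with control siRNA (mean -6.13 against -5.41). On slides 2 and 3 the faintest such signal with β-catenin siRNA and Wnt3a was -5.76 and -5.64. These lie close to the -5.69 and -5.62 with control siRNA and Wnt3a, so the bound rests mostly on replicate 1. The difference was called, under the limits above. That call was lost without control siRNA with Wnt3a replicate 1 and without any 1 of the 3 arrays of β-catenin siRNA with Wnt3a. It was also lost without any 1 slide and under spike-in scaling. Normexp with quantile scaling gave a smaller log2 difference of -0.29.

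NOTUM and APCDD1 act outside the cell. NOTUM encodes a secreted enzyme that removes the lipid from Wnt ligands, and its 2 probes were well above background on 0 of 24 arrays, so it has no fold change in any comparison. APCDD1 encodes a membrane protein that binds Wnt ligands and LRP5, and it was well above background on 21 of 24 arrays. APCDD1 read -3.05, -2.59 and -2.97 in untreated cells and -3.10, -3.93 and -3.15 with Wnt3a. After control siRNA it read -3.05, -3.30 and -3.17, and -3.83, -3.38 and -3.88 with Wnt3a. In both arms the Wnt3a values lay below the others without overlap. After β-catenin siRNA it read -3.24, -2.79 and -2.84, and -3.05, -2.71 and -2.77 with Wnt3a. With FZD8_CRD it read -3.73, -3.77 and -5.68, and -6.13, -5.83 and -5.83 with FZD8_CRD and Wnt3a, where no array was well above background. FZD8_CRD replicate 3 lay far below its 2 partners, close to the arrays that also had Wnt3a. Along the order of means, from β-catenin siRNA with Wnt3a at the top to FZD8_CRD, each condition overlapped the next, and FZD8_CRD with Wnt3a lay below them all without overlap.

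The response of APCDD1 to Wnt3a was not called in untransfected cells or after control siRNA, with log2 fold changes of -0.52 in both (SE 0.35, limma adjusted p 0.449 and 0.611). The slide differences were -0.05, -1.34 and -0.17 in untransfected cells and -0.78, -0.09 and -0.70 after control siRNA. Leaving out slide 2 moved the value in untransfected cells to -0.11, and alternatives ran from -0.92 to -0.11. With Wnt3a present it was higher with β-catenin siRNA than with control siRNA by 0.85, without overlap and on 3 of 3 slides (0.78, 0.67 and 1.11), at an unadjusted p of 0.0259. That difference was not called (adjusted p 0.149), although it was under normexp with quantile scaling (0.51) and in the fit to only the conditions compared. With FZD8_CRD alone APCDD1 lay below untreated cells by -1.53 (SE 0.35, adjusted p 0.00170), lower on 3 of 3 slides. The change was -0.88 without FZD8_CRD replicate 3 (adjusted p 0.00481) and -0.93 without slide 3, normexp with quantile scaling gave -0.52, and the submitters' own values gave -1.27 (adjusted p 0.0728, over alternatives from 0.000575 to 0.0728). In the fit to only the conditions compared the call was lost as well (limma adjusted p 0.0701). With FZD8_CRD and Wnt3a APCDD1 was at least 5.64-fold lower than with Wnt3a alone (mean -5.93 against -3.39, adjusted p 1.93e-05). It was at least 2.81-fold lower than with FZD8_CRD alone (mean -5.93 against -4.39, adjusted p 0.0112), a difference that was large on slides 1 and 2 and close to none on slide 3, where FZD8_CRD alone was low, and larger without that array. These bounds hold for the intensities used here, and normexp with quantile scaling gave log2 differences of only -0.74 and -0.49. The call against FZD8_CRD alone was lost without FZD8_CRD replicate 1 or 2, without FZD8_CRD with Wnt3a replicate 1 and without slide 1 or 2. It was also lost in the fit to only the conditions compared. The response to Wnt3a was not called as different with and without FZD8_CRD (adjusted p 0.414), although it was without FZD8_CRD replicate 3 or slide 3, and no size is given because 1 of the 4 groups was not measured.

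SP5 encodes a zinc finger repressor that binds the promoters of Wnt target genes. It hardly moved, with condition means between 1.67 and 1.87 and single arrays between 1.49 and 1.95, and each condition overlapped the next in the order of means. The log2 fold change with Wnt3a was 0.04 in untransfected cells (95% confidence interval -0.12 to 0.19), which turned to -0.36 under spike-in scaling. SP5 read 1.77, 1.75 and 1.49 in untreated cells and 1.93, 1.91 and 1.75 with FZD8_CRD, and these values overlapped. The difference of 0.19 was called (limma adjusted p 0.0433), but it turned to -0.20 under spike-in scaling (adjusted p 0.600, over alternatives from 0.0161 to 0.600). The call was also lost without FZD8_CRD replicate 1 (0.16) or 2 (0.17) and without untreated replicate 3 (0.11), without any 1 of the 3 slides (0.21, 0.21 and 0.16), and under quantile normalization (0.14), normexp with quantile scaling (0.11) and the submitters' own values (0.14). With Wnt3a the corresponding difference was 0.17 (adjusted p 0.0901), and slide as a block gave an adjusted p of 0.0405.

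Promoter sequences are shown for RNF43 and NKD2, which were called higher with Wnt3a in untransfected cells and after control siRNA, and for SP5, which was not. They come from the RefSeq annotation of GRCh38.p14, 250 bases before to 50 after a transcript start, and the table of promoters used here held windows for 4 of the 8 genes (NKD2, RNF43, SP5 and APCDD1, with 5 windows in all), so the other 4 were not analysed here. The 7-letter motifs CTTTGAA or CTTTGAT, as well as CTTTGTA or CTTTGTT, forms of the core that TCF and LEF factors recognise, were searched on both strands. They occur in 13.8% of 35116 promoters of this length, and 0.179% hold 3 or more. Capitals mark the matches. RNF43 has 2 windows, of which chr17:58417485-58417784 on the minus strand is printed and chr17:58402672-58402971 is not. The window of NKD2 is chr5:1008552-1008851 on the plus strand, and that of SP5 is chr2:170715087-170715386 on the plus strand.
RNF43: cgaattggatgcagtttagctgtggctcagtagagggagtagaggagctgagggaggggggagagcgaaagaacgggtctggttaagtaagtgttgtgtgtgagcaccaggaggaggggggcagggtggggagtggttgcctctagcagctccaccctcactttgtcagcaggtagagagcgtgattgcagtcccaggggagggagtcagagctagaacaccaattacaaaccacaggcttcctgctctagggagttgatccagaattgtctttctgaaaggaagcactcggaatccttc
NKD2: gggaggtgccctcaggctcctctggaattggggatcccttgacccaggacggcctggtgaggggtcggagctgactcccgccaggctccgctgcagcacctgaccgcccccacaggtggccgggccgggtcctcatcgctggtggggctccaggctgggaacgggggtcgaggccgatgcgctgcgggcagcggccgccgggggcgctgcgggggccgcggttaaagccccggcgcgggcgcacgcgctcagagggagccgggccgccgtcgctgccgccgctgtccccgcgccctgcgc
SP5: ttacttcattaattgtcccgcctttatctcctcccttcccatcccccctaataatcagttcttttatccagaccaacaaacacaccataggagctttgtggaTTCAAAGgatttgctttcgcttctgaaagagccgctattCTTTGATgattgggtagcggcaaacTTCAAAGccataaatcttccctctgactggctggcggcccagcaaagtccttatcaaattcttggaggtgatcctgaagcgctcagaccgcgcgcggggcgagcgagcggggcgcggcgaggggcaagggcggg
The SP5 window holds 3 matches, which begin at bases -148, -109 and -84 from the start, and the windows of RNF43, NKD2 and APCDD1 hold 0. A match describes letters only, and these windows leave out more distant sequence.

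The arms with β-catenin siRNA were then read over all feedback genes. In the arm with β-catenin siRNA, limma called 0 of the 7 tested genes with Wnt3a (1 had an unadjusted p under 0.05), where only 0.0406% of all genes were called, so that 0 of 7 is near the share over all genes. Between the responses after β-catenin and control siRNA it called 1 gene lower, RNF43, and 0 higher (4 at an unadjusted p under 0.05, NKD1 among them), where 0.0162% of all genes were called. Against control siRNA, β-catenin siRNA lowered 2 of the 7 without Wnt3a, where 10.5% of all genes were called. With Wnt3a it lowered 5 of the 7, where 10.6% of all genes were called, with AXIN2, RNF43, ZNRF3 and NKD2 among them besides NKD1, which had passed the filter through the control siRNA with Wnt3a group. APCDD1 went the other way there, by an uncalled 0.85. These comparisons share arrays with the others, so they are set side by side and are no separate evidence. Spike-in scaling left 0 and 2 of these calls. Among the markers, SPP1 was called higher and CD14 lower with β-catenin siRNA in both comparisons, beside the others given above. The part of these markers in the result was not tested.

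The arms with FZD8_CRD were read in the same way, and were not tested against those with β-catenin siRNA. In the presence of FZD8_CRD limma called 1 of the 7 genes higher (RNF43) and 1 lower (APCDD1) with Wnt3a, where 8.22% of all genes were called. In that comparison limma also called the markers APOA1, TTR, COL1A1 and ACTA2 higher, and APOB, CDH1 and KDR lower. Between the responses with and without FZD8_CRD it called 0 of 7 (1 had an unadjusted p under 0.05), where 0.0730% of all genes were called. Against cells without it, FZD8_CRD lowered 3 of the 7 without Wnt3a (AXIN2, RNF43 and APCDD1) and raised 1 (SP5, which spike-in scaling turned), where 41.9% of all genes were called. With Wnt3a it lowered 4 of the 7 (AXIN2, RNF43, NKD2 and APCDD1), where 37.2% of all genes were called. These counts have to be read against the large share of all genes that moved with FZD8_CRD. Spike-in scaling moved the median of all genes by FZD8_CRD to -0.47 without Wnt3a and -0.17 with it. All 8 hepatocyte markers were called lower with FZD8_CRD without Wnt3a (median log2 fold change -2.15) and 5 of 8 with Wnt3a (median -1.14). With Wnt3a, 2 of the 8 were higher but not called. Their means without and with FZD8_CRD were 3.84 and 5.26 for TTR, and 2.90 and 3.46 for APOA1. Other markers were called with it too. Without Wnt3a these were CDH1 of 3 epithelial, KDR of 4 endothelial, DCN of 6 stellate and fibroblast and SPP1 and SOX9 of 5 biliary and progenitor markers, all lower, and KRT19 and ACTA2, higher but turned by spike-in scaling. With Wnt3a the same markers were called in the same directions, and CD24 was lower as well. The mean of CDH1 was -0.12 in untreated cells and -1.20 with FZD8_CRD, that of KDR 1.81 and 0.30, and that of DCN 5.37 and 3.88. With Wnt3a the means were -0.82 and -2.79 for CDH1, 1.38 and -0.68 for KDR, and 6.08 and 3.74 for DCN. The part of these markers in the result was not tested.

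**Figure D3:**
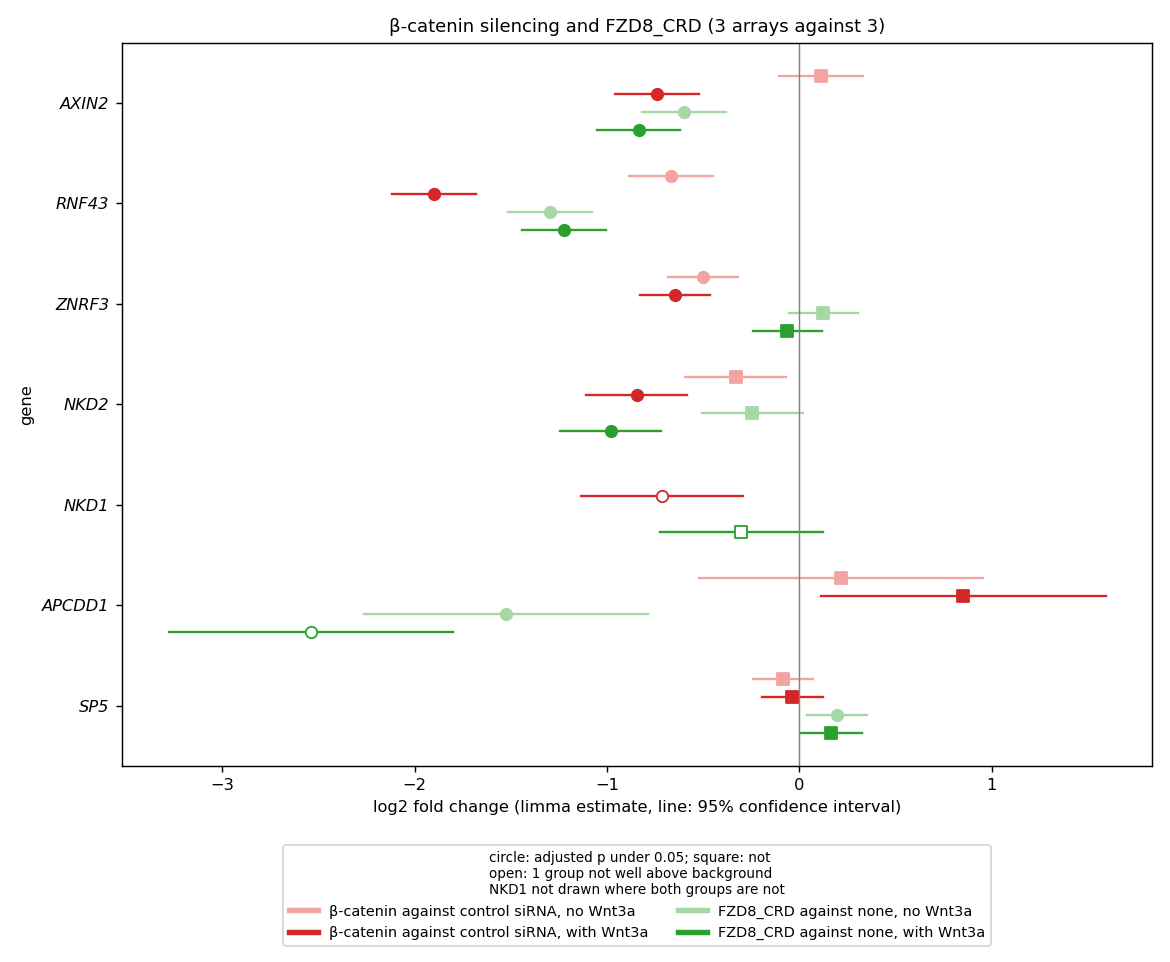
Log2 fold change (horizontal axis, limma estimate with its 95% confidence interval) of 7 feedback genes (vertical axis) for β-catenin siRNA against control siRNA and for FZD8_CRD against none, each without and with Wnt3a, 3 arrays against 3. RNF43 is called lower in all 4 comparisons and ZNRF3 only with β-catenin siRNA; the rise of SP5 with FZD8_CRD turns to -0.20 under spike-in scaling. Open symbols have a group with no array well above background, so their size is not measured.

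Transfection itself was measured by comparing control siRNA with untransfected cells. Transfected cells had been detached and took up the siRNA in suspension, and whether untransfected cells were detached alike is not known here. Without Wnt3a, 1 of the 7 genes was called lower and 0 higher in limma (2 had an unadjusted p under 0.05), where 22.4% of all genes were called. This gene was AXIN2, by a log2 fold change of -0.34 (adjusted p 0.0244, lower on 3 of 3 slides). The call was lost without untreated replicate 1 (-0.29) or 2 (-0.30) and without control siRNA replicate 1 (-0.33) or 3 (-0.29), without slide 1 (-0.29) or 2 (-0.35), and in the fit to only the conditions compared (-0.34). NKD2 differed by 0.33 without Wnt3a, which was not called (adjusted p 0.0633) but passed with slide as a block (adjusted p 0.0317) and without untreated replicate 2 (0.44, adjusted p 0.0276). With Wnt3a, 1 of the 7 genes was called higher and 0 lower (2 at an unadjusted p under 0.05), where 8.87% of all genes were called. This gene was NKD2, by 0.42 (adjusted p 0.0411), or 0.33, 0.13 and 0.81 on the 3 slides. The call was lost without Wnt3a replicate 1 (0.42) or 3 (0.33) and without control siRNA with Wnt3a replicate 2 (0.47) or 3 (0.32), without slide 1 (0.47), 2 (0.57) or 3 (0.23), with no filter or no moderation and in the fit to only the conditions compared (each 0.42). Spike-in scaling called neither gene but kept both directions, at -0.62 for AXIN2 without Wnt3a and 0.70 for NKD2 with it. All 8 hepatocyte markers were called lower after control siRNA without Wnt3a (median -1.77) and 5 of 8 with Wnt3a (median -1.39), with SPP1 and DCN lower in both, and their part in the result was not tested.

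Other genes of the pathway give the feedback genes their setting, from lists of targets, receptors and transducers. Among 19 other β-catenin target genes 13 were tested, and LGR5, DKK4, TNFRSF19, ASCL2, WIF1 and FGF18 were too dim. In untransfected cells Wnt3a raised 4 of 13 and lowered 0 in limma, where 5.43% of all genes were called. TCF7 read -2.87, -2.49 and -2.36 in untreated cells and -0.92, -0.60 and -1.14 with Wnt3a, well apart. LEF1 read -0.28, -0.06 and 0.42 in untreated cells and 0.96, 1.58 and 0.93 with Wnt3a, again without overlap. The log2 fold change was 1.69 for TCF7 (limma adjusted p 0.000942), 1.13 for LEF1 (adjusted p 0.000323) and 0.95 for EPHB3 (adjusted p 0.0266). The fourth was CD44 at 0.27 (adjusted p 0.0315), which turned to -0.13 under spike-in scaling. After control siRNA the same 4 genes were called higher and 0 lower, where 2.02% of all genes were called. After β-catenin siRNA limma called 0 of 13, where 0.0406% of all genes were called, and this 0 is near the share over all genes. With FZD8_CRD, Wnt3a still raised TCF7 (1.65, adjusted p 0.00101) and CD44 (0.32, adjusted p 0.00924), and it lowered GLUL (-0.72, adjusted p 0.00168) and DKK1 (-0.87, adjusted p 0.00509), where 8.22% of all genes were called.

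At equal Wnt3a the other targets moved both ways. Against cells without it, FZD8_CRD without Wnt3a raised 5 of the 13 in limma, where 41.9% of all genes were called. These were BIRC5 (1.44, adjusted p 1.95e-06), LEF1 (1.00, adjusted p 2.93e-05), MYC (0.59, adjusted p 0.000152), CD44 (0.55, adjusted p 6.16e-06) and CCND1 (0.34, adjusted p 0.0417), of which CCND1 turned to -0.05 under spike-in scaling. It lowered 3, GLUL (-0.82, adjusted p 2.17e-05), DKK1 (-0.54, adjusted p 0.0178) and SOX9 (-0.53, adjusted p 0.0216). These rises ran against the lower AXIN2 and RNF43 in the same arrays. With Wnt3a FZD8_CRD raised 3 (BIRC5, MYC and CD44) and lowered 3 (GLUL, DKK1 and SOX9), where 37.2% of all genes were called. β-catenin siRNA against control siRNA raised 3 without Wnt3a (BAMBI, CCND1 and CD44) and lowered 5 (TCF7, EPHB3, LEF1, DKK1 and GLUL), where 10.5% of all genes were called. With Wnt3a it raised 3 (BAMBI, CCND1 and MYC) and lowered 5 (TCF7, EPHB3, LEF1, SOX9 and GLUL), where 10.6% of all genes were called. Spike-in scaling called 1 higher and 4 lower with FZD8_CRD without Wnt3a, 0 and 2 with Wnt3a, 0 and 0 with β-catenin siRNA without Wnt3a, and 0 and 3 with Wnt3a.

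**Figure D4:**
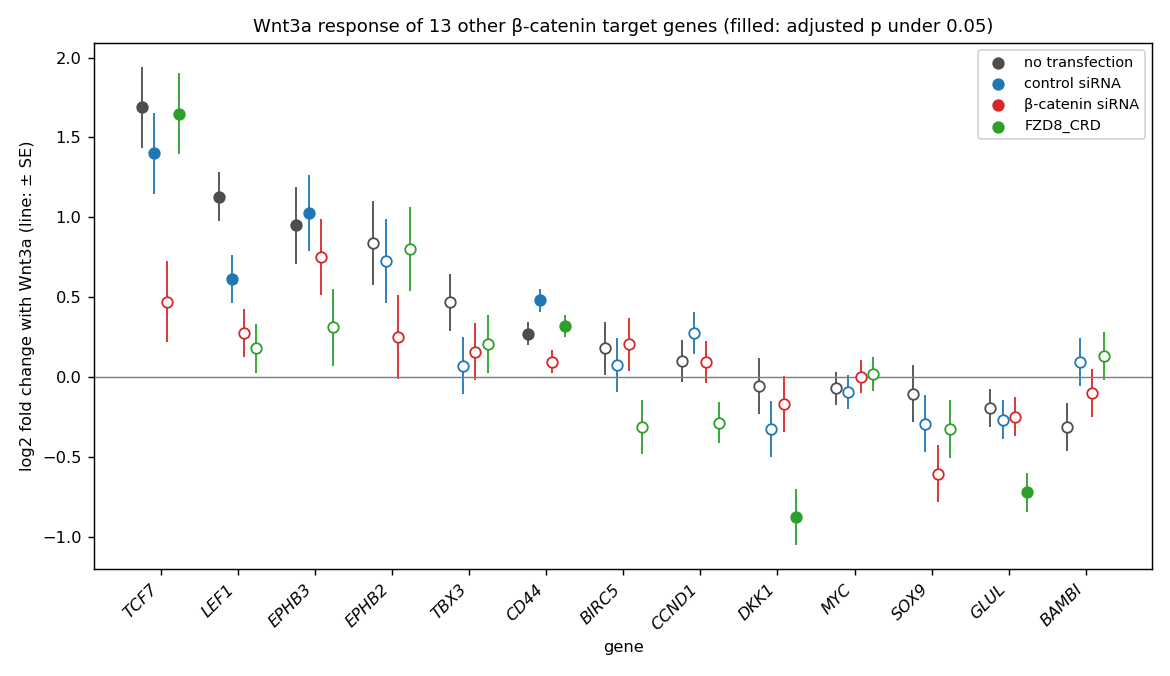
Log2 fold change with Wnt3a (vertical axis, limma estimate with its SE) of 13 other β-catenin target genes (horizontal axis) in the 4 arms, filled where the adjusted p is under 0.05. TCF7, LEF1, EPHB3 and CD44 are called higher in untransfected cells and after control siRNA, although CD44 turns to -0.13 in untransfected cells under spike-in scaling, and no gene is called after β-catenin siRNA.

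The receptors on which RNF43 and ZNRF3 act, with their R-spondin regulators, were tested for 19 of 21 genes, and FZD10 and RSPO4 were too dim. In untransfected cells Wnt3a raised 3 of the 19 and lowered 2 in limma, where 5.43% of all genes were called. FZD6 rose by 0.60 (limma adjusted p 0.00102) and RSPO3 by 1.07 (adjusted p 0.0332), and RYK rose by 0.32 (adjusted p 0.0129) but turned to -0.08 under spike-in scaling. FZD8 fell by 1.16 (adjusted p 0.0219) and FZD4 by 0.67 (adjusted p 0.0324). After control siRNA only FZD6 was called higher (0.42, adjusted p 0.0187) and only LGR4 lower (-0.37, adjusted p 0.0391), where 2.02% of all genes were called. All 22 cytoplasmic and nuclear transducers were tested, and the co-repressor gene TLE3 was the only call with Wnt3a, in untransfected cells (0.74, adjusted p 0.0309) and after control siRNA (0.84, adjusted p 0.0266), beside 5.43% and 2.02% of all genes. Against cells without it, FZD8_CRD raised 5 of the 19 receptors and R-spondins and lowered 7 without Wnt3a, and raised 1 and lowered 7 with it, beside 41.9% and 37.2% of all genes. β-catenin siRNA raised 2 of the 19 and lowered 1 without Wnt3a, and raised 4 and lowered 3 with it, beside 10.5% and 10.6% of all genes. Of the 22 transducers, FZD8_CRD raised 2 and lowered 4 without Wnt3a (DVL2, among the higher, turned to -0.10 under spike-in scaling) and raised 3 and lowered 3 with it, and β-catenin siRNA raised 3 and lowered 0, and raised 3 and lowered 1.

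Across the 24 arrays, AXIN2 correlated with RNF43 at r = 0.87 and with NKD2 at 0.74, and NKD2 correlated with RNF43 at 0.80. SP5 and APCDD1 had a correlation of -0.52. These values describe arrays that share 8 conditions and 3 slides. The genes most like each feedback gene over the 24 arrays, by Pearson r, were named among 15970 others with a symbol. They were ADCY8 (0.90), COL5A2 (0.88) and RNF43 (0.87) for AXIN2, and PI15 (0.91), HMCN1 (0.91) and SH3BGRL2 (0.89) for RNF43. ZNRF3 was most like ARF3 (0.94), IGFL3 (0.93) and ARNT2 (0.93). NKD2 was most like NAB2 (0.91), VSTM2L (0.90) and SNORD80 (0.88). NKD1, at the floor on most arrays, was most like WNT5B (0.88), MGAT5B (0.81) and BMP7 (0.78), and APCDD1 was most like TSC22D3 (0.99), KDR (0.98) and CTSD (0.96). SP5 was most like UBB (0.90), ZNF207 (0.87) and ESYT1 (0.87), over its narrow range.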

How the data were processed

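The scanner files of the 24 arrays give, per the file headers, processed spot intensity from Agilent Feature Extraction (10.7.1.1 in the headers, 10.7.3.1 in the submitters' notes). The authors' deposited log2 values, centred per probe, served only as an alternative. Their scale and centring were read by setting them against the scanner values, and the medians of the 24 columns ran from -0.050 to 0.019. The notes name a 4×44K v2 array, while the files hold 62976 spots. Control and outlier spots were left out, spots of a probe were averaged, intensity was divided by the array's 75th percentile and floored at 1.43% of it, and log2 was taken. A probe was kept (31062 were) if some condition had it well above background in its 3 replicates, and each gene was read from its brightest probe. RefSeq transcripts gave symbols to 28174 probes. limma 3.58.1 in R 4.3.3 fitted 8 condition means (lmFit, contrasts.fit, eBayes with trend) for 12 two-sided comparisons, with Benjamini-Hochberg adjustment over 24643 genes. The code was tested on simulated data. The R package data.table (version 1.17.8), Python 3.11.15, pandas 2.3.3 and matplotlib 3.10.9 were used.

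Named genes were all 8 feedback genes, CTNNB1, the 3 genes most like each feedback gene, and the called genes of the pathway and marker lists (up to 6 a list). The members and lists were chosen with earlier results of these data known. From these lists 2 genes are not reported here, and counts leave them out. Alternatives covered scaling (quantile, spike-in, normexp with offset 50 and quantile, the authors' values), filters, probe choice, the floor, outlier spots, slide as a block, moderation, the study's thresholds (unadjusted p under 0.01 with a fold above 1.5 or below 0.7), fits to only the conditions compared, and leaving out arrays or replicates.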

Additional observations from a re-analysis of the deposited data

Results flagged for a closer look

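The response of RNF43 to Wnt3a differed between β-catenin siRNA and control siRNA by -1.23 in log2, a test of the difference itself (limma adjusted p 0.00188). The call was lost under spike-in scaling (-1.53, adjusted p 0.598), without slide 1 (-1.15, 0.417) and without slide 2 (-1.37, 0.796), over alternatives from 0.000385 to 0.796. The values were 0.92, 0.82 and 1.34 on the 3 slides after control siRNA and -0.48, -0.13 and -0.01 after β-catenin siRNA. Their cause was not tested.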

How the results depend on the processing

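Of 288 counts of called feedback genes under alternatives, 228 stayed within 1.5 times the count given and 60 moved; of 1875 single values, 1683 kept direction and side of the threshold, 94 lost a call, 30 gained one, 2 called values turned and 66 uncalled ones changed sign. RNF43 stayed called under every alternative run for Wnt3a after control siRNA (0.87 to 1.18). The values that turned, both under spike-in scaling, were AXIN2 with Wnt3a in untransfected cells (-0.027) and SP5 with FZD8_CRD without Wnt3a (-0.20).

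Counts that moved are given by setting. Spike-in scaling left 0 called genes of 3 for Wnt3a in untransfected cells, 1 of 3 after control siRNA, 1 of 2 with FZD8_CRD, 0 of 1 for the difference between siRNA arms, 0 of 2 and 2 of 5 for β-catenin siRNA without and with Wnt3a, and 0 of 1 for control siRNA against none, each without and with Wnt3a. Fits to only the conditions compared, with fewer arrays, gave 0 for Wnt3a in untransfected cells, 0 with FZD8_CRD, 2 for the difference between siRNA arms (AXIN2 gained), 2 for FZD8_CRD without Wnt3a, and 0 for control siRNA without and with Wnt3a. The difference between siRNA arms counted 2 under quantile normalization, the mean of the kept probes and the replicate block, and 3 under the study's thresholds. The replicate block gave 1 for the difference with FZD8_CRD (NKD2) and 2 for control siRNA without Wnt3a (NKD2 gained). The study's thresholds gave 1 for the difference with FZD8_CRD, 1 for β-catenin siRNA without Wnt3a and 0 for control siRNA without and with Wnt3a. The dimmer probes gave 1 for β-catenin siRNA without Wnt3a, and the authors' values, in which NKD1 is missing, gave 2 for FZD8_CRD without Wnt3a. The filter on all 24 arrays, which drops NKD1 and APCDD1, gave 1 for Wnt3a with FZD8_CRD. Control siRNA with Wnt3a gave 0 with no filter and 0 unmoderated. Where no cause is named, the cause was not tested.

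Leaving out arrays or replicates gave 0 to 3 genes for Wnt3a in untransfected cells, 1 to 3 after control siRNA, 0 to 0 after β-catenin siRNA and 0 to 2 with FZD8_CRD. It gave 0 to 2 for the difference between siRNA arms, 0 to 2 for that with FZD8_CRD, 1 to 3 and 4 to 5 for β-catenin siRNA without and with Wnt3a, 3 to 4 and 4 to 5 for FZD8_CRD, and 0 to 1 and 0 to 2 for control siRNA. Without replicate 1, 19 genes of all those tested were called higher and 5 lower with Wnt3a in untransfected cells, without replicate 2 it was 17 and 0, and without replicate 3 it was 3028 and 3226, beside 772 and 565 with all arrays. Leaving out replicate 2 ended the call of RNF43 there (0.72, adjusted p 0.219), and leaving out replicate 1 (-1.15) or 2 (-1.37) ended that of its difference between siRNA arms. NOTUM, NKD1 and part of APCDD1 were too dim to measure, and 3 arrays a condition from a single line limit the rest.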
